A study of Mus musculus with 8 samples.

Results

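Oxidative phosphorylation (OXPHOS) is carried out by 5 enzyme complexes of the inner mitochondrial membrane, and the nuclear genes for their subunits were examined here in mouse mammary tumours. The genes were chosen by name from the table of counts, as rows whose Entrez identifier belongs to a nuclear mouse gene with a symbol starting with Nduf, Uqcr or Atp5, starting with Cox4 to Cox8, or equal to Sdha, Sdhb, Sdhc, Sdhd or Cyc1. Among 27179 genes 101 matched, 5 pseudogenes were left out, and 96 genes remained. They comprised 38 genes of complex I, 8 Ndufaf genes that encode assembly factors of complex I, 4 of complex II, 9 of complex III, 20 of complex IV (Ndufa4 and Ndufa4l2 included) and 17 of complex V. The rule uses symbols and no measured value.

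Electrons from NADH enter the respiratory chain at complex I and those from succinate at complex II, pass through ubiquinone, complex III and cytochrome c, and reach oxygen at complex IV. Complexes I, III and IV pump protons across the inner membrane, and complex V, the ATP synthase, uses the resulting gradient to make ATP. A small set of core subunits of complexes I, III, IV and V is encoded by mitochondrial DNA, whereas every subunit of complex II and all other subunits are encoded in the nucleus, and several subunits of complex IV exist as alternative isoforms made in different tissues.

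The tumours grew in the mammary fat pad of female BALB/c mice, 7 to 8 weeks old, from 4T1.13 cells, a metastatic murine mammary carcinoma line. In 4 mice the injected line was 4T1.13-miR-21-KD. Its miArrest lentiviral vector makes an RNA from the H1 promoter that sequesters mature miR-21. In the other 4 mice it was the vector control 4T1.13-VC, whose vector makes a scrambled RNA. Both lines carried the mCherry reporter and hygromycin resistance of the vector, and each was a pool of 6 clones. The comparison of 4 VC with 4 miR-21-KD tumours asks which transcripts differ when miR-21 is sequestered. The labels give 100000 injected cells and day 14. The paper's text gives an earlier day of recovery, at which it describes the miR-21-KD tumours as starting to regress. Total RNA of whole tumours, host cells included, was sequenced, and the deposited values were raw counts of reads per gene, with 12134849 to 13592695 counts per tumour. Levels are given as CPM, the counts of a gene divided by the scaled size of its library and multiplied by 1000000. Where 0 counts were found, up to 3 remain possible at this depth (0.221 to 0.247 CPM), counting error alone being covered. The row of Mir21a held 0 counts in all 8 tumours, so the sequestering of the miRNA could not be checked in these libraries. Cells of the tumour line and of the host were measured together, and fewer cells of a type cannot be told apart from less RNA per cell.

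The miRNA that the vector sequesters is shown first, because its seed sets the letters that were searched in the transcripts. Mature miR-21 of the mouse (RefSeq, GRCm38.p6, chr11:86584120-86584141, minus strand) is printed from 5′ to 3′ with the seed, bases 2 to 8, in capitals.
mmu-miR-21a-5p: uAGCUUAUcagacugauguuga

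The 7 letters that pair with this seed, ATAAGCT, were searched in the 3′ UTR of 1 protein-coding transcript per gene of the GENCODE vM21 annotation. They were found in 4 of the 89 OXPHOS genes that could be tested for a difference (4.49%), against 931 of 13265 tested genes with such a UTR (7.02%). The 3′ UTRs of the OXPHOS genes were short, with a median of 175 bases against 1020 bases. Other kinds of site, other parts of the transcript and other transcripts of a gene were not searched. The 5 sites found are printed with the match in capitals and the flanking bases in lower case, as coordinates of GRCm38.
Ndufb5, + strand, chr3:32751367-32751387: actgttgATAAGCTgctgatg
Ndufv2, - strand, chr17:66079425-66079445: tccctacATAAGCTttattcg
Ndufv2, - strand, chr17:66079154-66079174: attttttATAAGCTttatgtc
Ndufaf4, + strand, chr4:24904831-24904851: gtctgatATAAGCTtgagata
Atp5g1, - strand, chr11:96071020-96071040: ctaggccATAAGCTaggctgc
Of these 4 genes, Ndufb5 and Ndufv2 of complex I were lower in miR-21-KD tumours (described with complex I), Ndufaf4 had a log2 fold change of 0.15 ± 0.11, edgeR adjusted p = 0.287, and Atp5g1 of -0.22 ± 0.31, edgeR adjusted p = 0.587. None of the 4 was called higher. A match of letters describes the transcript and does not show that the miRNA binds there.

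Of the 96 genes 89 had enough counts to be tested and 7 had not. Among the 89, 19 were lower and 2 were higher in miR-21-KD than in VC tumours at an adjusted p below 0.05 (edgeR quasi-likelihood test with Benjamini-Hochberg adjustment over all 14382 genes tested), and 68 did not pass. In all tested genes 39.1% passed in either direction, 19.5% lower and 19.6% higher, whereas in the OXPHOS genes 21.3% were lower and 2.25% higher. The share that was lower was thus near the background, and the share that was higher was below it. The median log2 fold change was -0.09 over the 89 genes and -0.01 over all tested genes, and 86 of the 89 genes differed by less than 2-fold. Values of the groups did not overlap for 20 genes that were below VC and 1 that was above, or 23.6% of the 89, against 35.2% of all tested genes. Replicate numbers in the labels were taken to pair the tumours, although no source names a pairing (see the account of the processing). With these numbers as a replicate block 24 genes were lower and 6 higher, against 22.1% lower and 23% higher of all tested genes. The genes called higher with the block beside Uqcrq and Ndufa4l2 were Ndufa1, Ndufb7, Cox4i1 and Cox6b2, the last of which met the count minimum in 1 VC and 4 miR-21-KD tumours. Leaving out 1 tumour moved the count of lower genes from 19 to 10 without VC replicate 2 or VC replicate 3 and to 12 without miR-21-KD replicate 3, and the count of higher genes to 5 without VC replicate 4 or miR-21-KD replicate 2 and to 1 without miR-21-KD replicate 3 or 4. Cox6b2 and Cox8b were 2 of those 5 in each case. Both reached the count minimum through the miR-21-KD group, where they were higher, and Cox8b was not among the 89. Calls among all genes also changed in number with 1 tumour left out (see the last section). The OXPHOS counts of these fits are not set against a background share.

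**Figure D1:**
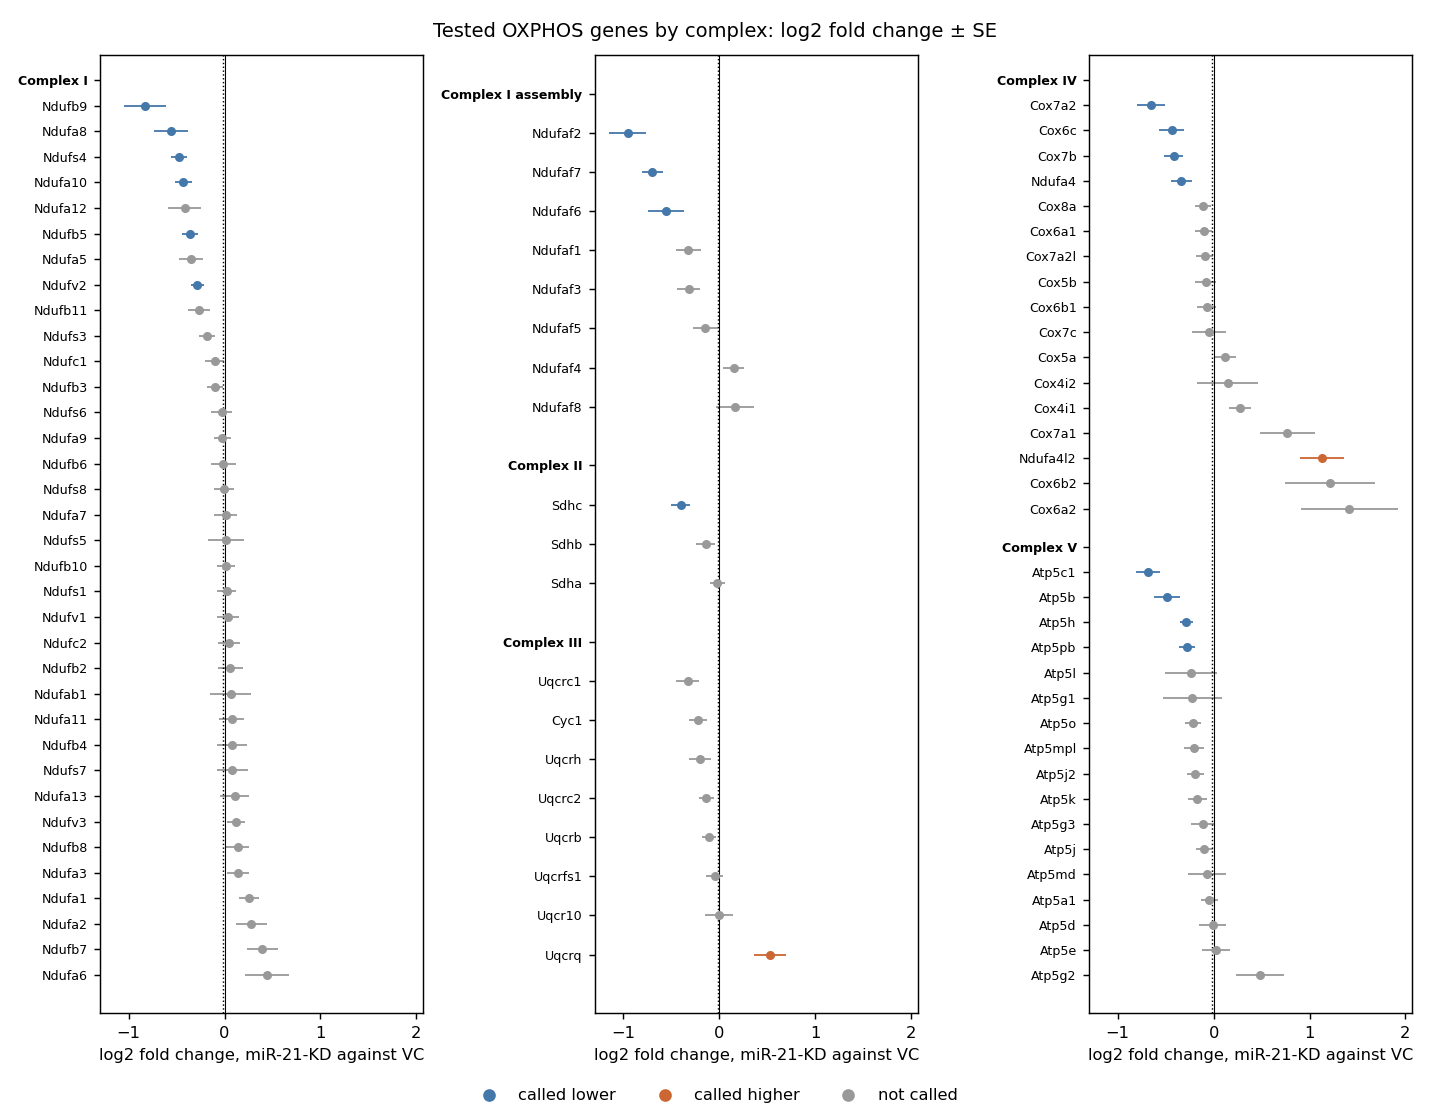
Log2 fold change of miR-21-KD against VC tumours for the tested OXPHOS genes except 1 that is not shown, grouped by complex, with the standard error of the fit as a horizontal bar (4 tumours per group). Blue points are genes called lower, orange points the 2 called higher and grey points the 68 not called, the dotted line is the median of all tested genes, and most points lie within 0.5 of zero.

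All OXPHOS genes together held 0.817% to 0.898% of the counts in VC tumours and 0.655% to 0.817% in miR-21-KD tumours. The lowest share was that of miR-21-KD replicate 1 and the highest among the miR-21-KD tumours that of replicate 4. For 15 of the 19 genes called lower, replicate 1 of the miR-21-KD group was the lowest of the 8 tumours, and for 14 of the 19 replicate 2 was the highest of the miR-21-KD tumours. The mean log2 CPM of the tested genes of a complex overlapped between the groups for complexes I, II, III, IV and V. The groups were separate for the complex I assembly factors, with 3.74 ± 0.11 (SD, n = 4) across VC and 3.41 ± 0.11 in miR-21-KD tumours. They were also separate for the 5 F1 genes within complex V (7.97 ± 0.06 and 7.72 ± 0.18). The other genes of complex V overlapped, as did the core and the other genes of complex I taken apart.

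**Figure D2:**
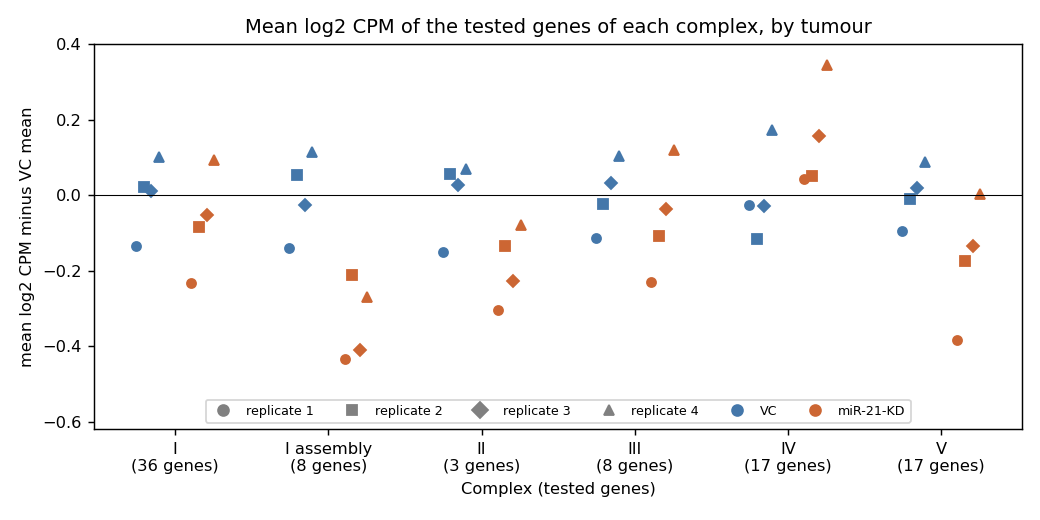
Mean log2 CPM of the tested genes of each complex in each tumour, as the difference from the mean of the 4 VC tumours, with the replicate number as the shape of the point. The miR-21-KD tumours lie below all VC tumours for the complex I assembly factors and overlap with them for complexes I to V, and replicate 1 of the miR-21-KD group is the lowest point of 5 of the 6 sets, complex IV being the exception.

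Complex I takes electrons from NADH. Of its 36 tested genes 7 were lower (19.4%, against 19.5% of all tested genes) and 0 were higher (against 19.6%). The median log2 fold change was 0.01. Ndufs4, an accessory subunit of the NADH-binding arm, measured 80.3, 84.0, 88.1 and 92.8 CPM in VC replicates 1 to 4 and 55.5, 65.7, 61.2 and 66.0 CPM in miR-21-KD replicates 1 to 4. All VC tumours were above all miR-21-KD tumours, with a log2 fold change -0.47 ± 0.09 (SE, n = 4 per group), edgeR adjusted p = 0.00709. Ndufa10, an accessory subunit of the membrane arm, measured 101, 116, 116 and 105 CPM across VC and 74.3, 91.3, 76.5 and 83.8 CPM across miR-21-KD tumours. The groups again did not overlap (-0.43 ± 0.09, edgeR adjusted p = 0.011).

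Ndufv2, an iron-sulphur subunit of the NADH-binding module whose transcript holds 2 of the miR-21 seed matches, measured 119, 118, 117 and 113 CPM across VC and 93.8, 93.1, 93.8 and 102 CPM across miR-21-KD tumours. The VC values were close to each other and separate from the miR-21-KD values (-0.28 ± 0.07, edgeR adjusted p = 0.014). Ndufb5, a membrane arm subunit with 1 seed match, measured 76.0, 79.7, 86.2 and 85.7 and 59.2, 63.9, 60.5 and 71.4 CPM (-0.36 ± 0.09, edgeR adjusted p = 0.0144). Exons of another gene cover 20.02% of its transcript.

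Ndufb9 and Ndufa8, both accessory subunits, are named because they had the largest falls of complex I, a choice made after their values were seen. Ndufb9 measured 217, 248, 247 and 211 CPM across VC and 75.8, 172, 139 and 133 CPM across miR-21-KD tumours (-0.83 ± 0.22, edgeR adjusted p = 0.0196). Replicate 1 of the miR-21-KD group was the lowest by a wide margin. Exons of another gene cover 28.6% of its transcript, and the handling of reads on overlapping genes is not given in the sources used here, so its level is uncertain. The adjusted p of Ndufb9 rose above 0.05 without VC replicate 2 or 3 or miR-21-KD replicate 4, to at most 0.0543. Ndufa8 was counted at a low level, with 7.89, 9.49, 10.01 and 7.68 CPM across VC and 4.85, 6.84, 5.76 and 6.34 CPM across miR-21-KD tumours (-0.56 ± 0.17, edgeR adjusted p = 0.0335). It lost its call without any 1 of 5 tumours, namely VC replicates 2 and 3 and miR-21-KD replicates 1, 3 and 4.

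Ndufs1, the largest of the nuclear core subunits of complex I, measured 86.3 ± 8.25 CPM (SD, n = 4) across VC and 87.6 ± 8.59 CPM across miR-21-KD tumours (0.02 ± 0.10, edgeR adjusted p = 0.881). Ndufv1, which binds NADH next to Ndufv2, measured 76.8 ± 8.72 CPM (SD, n = 4) across VC and 78.8 ± 8.45 CPM across miR-21-KD tumours (0.04 ± 0.11, edgeR adjusted p = 0.81). Neither of these core subunits differed beyond its spread, while Ndufv2 did. The 29 complex I genes that did not pass ranged from -0.41 (Ndufa12) to 0.45 (Ndufa6) on the log2 scale. Of these, Ndufa1 (0.25, edgeR adjusted p = 0.0339) and Ndufb7 (0.40, edgeR adjusted p = 0.0112) passed upward with the replicate block.

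The assembly factors of complex I are not part of the finished enzyme. Of the 8 Ndufaf genes 3 were lower (37.5%, against 19.5% of all tested genes) and 0 higher (against 19.6%). Their median log2 fold change was -0.32. Ndufaf2, a chaperone of late assembly, measured 17.5, 17.0, 16.6 and 21.1 CPM across VC and 8.16, 13.1, 7.95 and 8.06 CPM across miR-21-KD tumours. This was the largest fall among the tested OXPHOS genes (-0.95 ± 0.19, edgeR adjusted p = 0.00922). Among the miR-21-KD tumours replicate 2 stood above the others, which lay close together. Ndufaf7, a methyltransferase that acts in complex I assembly, measured 23.2, 26.4, 24.3 and 25.2 CPM across VC and 13.7, 17.6, 15.4 and 14.4 CPM across miR-21-KD tumours, and no values overlapped (-0.69 ± 0.11, edgeR adjusted p = 0.00601). The third, Ndufaf6, had few counts, with 6.05, 7.50, 5.91 and 7.77 CPM across VC and 4.53, 5.42, 3.81 and 4.77 CPM across miR-21-KD tumours (-0.55 ± 0.18, edgeR adjusted p = 0.0422). It lost its call when any 1 of 6 tumours was left out (VC replicates 2, 3 and 4 and miR-21-KD replicates 1, 3 and 4). Ndufaf1 (-0.32 ± 0.13, edgeR adjusted p = 0.0824) and Ndufaf3 (-0.32 ± 0.12, edgeR adjusted p = 0.0648) did not pass, and Ndufaf4, Ndufaf5 and Ndufaf8 lay between -0.14 and 0.17.

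Complex II, succinate dehydrogenase, oxidises succinate in the tricarboxylic acid (TCA) cycle and has no subunit encoded in mitochondrial DNA. Sdhc, a membrane anchor with the haem and ubiquinone site, measured 134, 171, 162 and 178 CPM across VC and 111, 127, 122 and 127 CPM across miR-21-KD tumours. The groups did not overlap, with a log2 fold change -0.40 ± 0.10 (SE, n = 4 per group), edgeR adjusted p = 0.0181, and edgeR's adjusted p was at most 0.0525 with 1 tumour left out, above 0.05 without VC replicate 2 or 3. Sdha, the flavoprotein that oxidises succinate, measured 238, 255, 244 and 238 CPM across VC and 235, 237, 230.4 and 259 CPM across miR-21-KD tumours, and these values overlapped (-0.02 ± 0.08, edgeR adjusted p = 0.857). Sdhb, the iron-sulphur subunit, measured 91.1, 102, 106 and 108 and 80.8, 99.4, 87.7 and 102 CPM (-0.14 ± 0.10, edgeR adjusted p = 0.282). Its groups overlapped too. In counts of Sdhc per 100 counts of Sdha the tumours were separate, with 56.3, 66.9, 66.3 and 74.8 across VC and 47.1, 53.8, 53.0 and 48.9 across miR-21-KD tumours, a description of a pair chosen after its values were seen. Sdhd, the other membrane anchor, had 2 to 6 counts per tumour and was not tested.

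Complex III passes electrons from ubiquinol to cytochrome c. Of its 8 tested genes 1 was higher (12.5%, against 19.6% of all tested genes) and 0 were lower (against 19.5%). The median log2 fold change was -0.12. Uqcrq, a small subunit, measured 34.4, 40.4, 44.9 and 54.8 CPM across VC and 49.7, 59.97, 70.4 and 71.9 CPM across miR-21-KD tumours (log2 fold change 0.53 ± 0.17 (SE, n = 4 per group), edgeR adjusted p = 0.0349). VC replicate 4 was above miR-21-KD replicate 1, so the groups overlapped, whereas the miR-21-KD tumour was above the VC tumour of the same number in each of the 4 pairs. Without 1 tumour the adjusted p of Uqcrq reached 0.0926, and the call was lost without VC replicate 1, 2 or 3 or miR-21-KD replicate 3 or 4. Uqcrc1, a core protein and the complex III gene with the highest mean CPM over all 8 tumours, though Uqcrh was above it in the mean of the miR-21-KD group (not scaled to transcript length here or for the other complexes), measured 177, 211, 219 and 202 CPM across VC and 134, 174, 155 and 181 CPM across miR-21-KD tumours. Its groups overlapped (-0.33 ± 0.12, edgeR adjusted p = 0.0514), and it passed with the replicate block (-0.33, edgeR adjusted p = 0.0236). Cyc1, cytochrome c1, was at -0.22 ± 0.10, edgeR adjusted p = 0.0944. The catalytic Rieske protein gene Uqcrfs1 was at -0.05 ± 0.09, edgeR adjusted p = 0.696, and Uqcrh, Uqcrc2, Uqcrb and Uqcr10 lay between -0.20 and 0.00. Uqcr11 had 0 to 2 counts per tumour and was not tested.

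**Figure D3:**
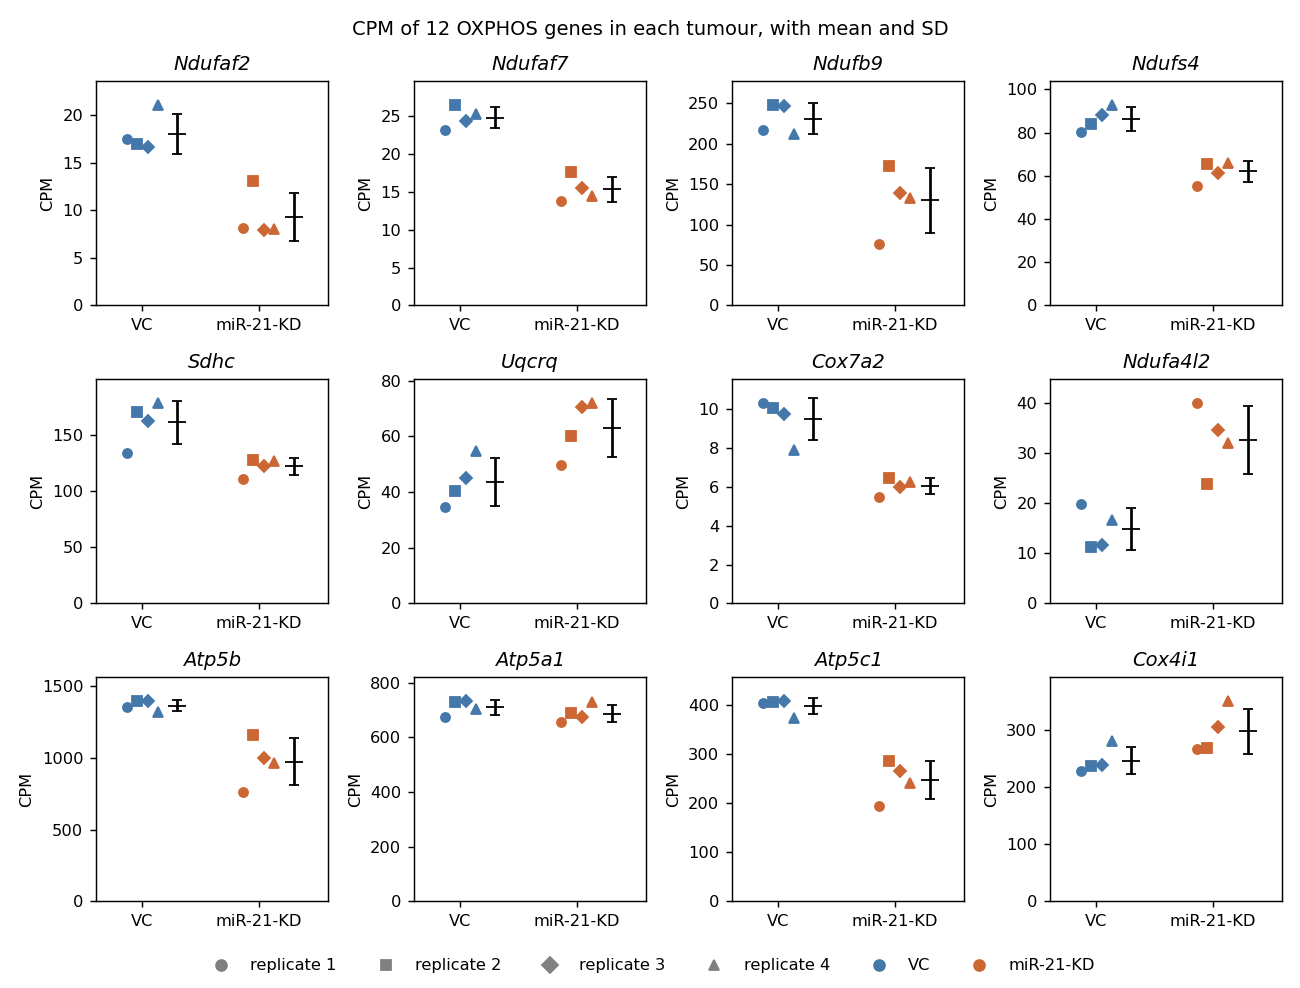
CPM of 12 OXPHOS genes in each of the 8 tumours, on linear axes that start at 0, with the mean and SD of each group (n = 4) as a black bar and the replicate number as the shape. The groups are separate for the lower genes Ndufaf2, Ndufaf7, Ndufb9, Ndufs4, Sdhc, Cox7a2, Atp5b and Atp5c1 and for the higher gene Ndufa4l2, and overlap for Uqcrq, Atp5a1 and Cox4i1.

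Complex IV, cytochrome c oxidase, reduces oxygen. Of its 17 tested genes 4 were lower (23.5%, against 19.5% of all tested genes) and 1 was higher (5.88%, against 19.6%). In either direction 29.4% were called, below the background of 39.1%. On the log2 scale the median change of the complex was -0.07. Cox7b, a small subunit without which the complex does not assemble well, measured 148, 139.6, 140.0 and 142 CPM across VC and 95.5, 95.7, 117 and 118 CPM across miR-21-KD tumours, without overlap (-0.42 ± 0.10, edgeR adjusted p = 0.0131). Cox6c, another small subunit, measured 160.2, 178, 187 and 168 and 98.7, 151, 130.2 and 132 CPM (-0.44 ± 0.13, edgeR adjusted p = 0.0275). The miR-21-KD values were all below the VC values, although the call of Cox6c was lost without VC replicate 2 or 3 or miR-21-KD replicate 3 or 4. Cox4i1, the isoform of subunit 4 made in most tissues and the complex IV gene with the highest mean CPM, measured 229, 238, 239.6 and 281 CPM across VC and 267, 269, 306 and 352 CPM across miR-21-KD tumours. These values overlapped (0.27 ± 0.12, edgeR adjusted p = 0.0898), and Cox4i1 passed with the replicate block (0.27, edgeR adjusted p = 0.0336).

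Ndufa4 was named as a complex I subunit and is now placed in complex IV, where its paralogue Ndufa4l2, a gene known to be induced in hypoxia, can take its place. Ndufa4l2 measured 19.9, 11.2, 11.7 and 16.6 CPM across VC and 39.9, 23.8, 34.6 and 31.9 CPM across miR-21-KD tumours, all of the latter above all of the former (log2 fold change 1.13 ± 0.23 (SE, n = 4 per group), edgeR adjusted p = 0.00922). Ndufa4 moved the other way, with 131, 157, 143 and 133 CPM across VC and 92.6, 124, 114 and 116 CPM across miR-21-KD tumours (-0.34 ± 0.11, edgeR adjusted p = 0.038). It lost its call when any 1 of 6 tumours was left out (VC replicates 1, 2 and 3 and miR-21-KD replicates 1, 3 and 4). Per 100 counts of Ndufa4 there were 15.2, 7.11, 8.19 and 12.5 counts of Ndufa4l2 across VC and 43.1, 19.2, 30.2 and 27.5 across miR-21-KD tumours. The ratio was highest in miR-21-KD replicate 1 and separate between the groups (exact permutation test, two-sided p = 0.0286, adjusted to 0.0429 over the 6 isoform pairs tested by Benjamini-Hochberg). With 4 tumours against 4 no smaller p can be reached. When labels were exchanged only within the 4 pairs of the same replicate number, the smallest p possible was 0.125, which Ndufa4l2 and the other pairs except Cox4i2 reached, so no ratio passed in that way (adjusted p = 0.15 or more, exact permutation). Scaled to transcript length, Ndufa4 remained the more abundant, with 231 across VC and 183 across miR-21-KD tumours CPM per kilobase, against 15.9 across VC and 34.9 across miR-21-KD tumours for Ndufa4l2.

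Of the other isoform pairs of complex IV, the one made in striated muscle was more frequent relative to its widely made partner in 3 cases. Cox7a1, known from heart, skeletal muscle and brown fat, had 11.4, 16.7, 8.87 and 16.5 counts per 100 counts of Cox7a2 across VC and 29.4, 28.0, 40.5 and 43.8 across miR-21-KD tumours. All miR-21-KD values were above all VC values (exact permutation p = 0.0286, adjusted 0.0429). Cox7a2 itself fell, from 10.3, 10.1, 9.77 and 7.93 CPM in VC to 5.50, 6.45, 6.01 and 6.26 CPM in miR-21-KD tumours (-0.65 ± 0.15, edgeR adjusted p = 0.0131), while Cox7a1 measured 1.18, 1.68, 0.867 and 1.31 and 1.62, 1.81, 2.43 and 2.74 CPM (0.77 ± 0.29, edgeR adjusted p = 0.0601). Among the other settings and the fits with 1 tumour left out, Cox7a1 was called higher only with a minimum of 10 counts in every tumour. Cox6a2, the heart and muscle isoform of subunit 6a, had 0.467, 0.176, 1.09 and 0.920 counts per 100 counts of Cox6a1 across VC and 1.96, 2.35, 1.11 and 2.35 across miR-21-KD tumours (exact permutation p = 0.0286, adjusted 0.0429). The separation of this ratio was narrow, since VC replicate 3 (1.09, from 20 counts of Cox6a2) lay just below miR-21-KD replicate 3 (1.11, from 18 counts). All ratios with this p share the adjusted value, which would rise for each of them if any of them overlapped. The fold change of Cox6a2 did not pass (1.41 ± 0.51, edgeR adjusted p = 0.0538), with 0.590, 0.239, 1.58 and 1.31 CPM across VC and 2.26, 2.83, 1.46 and 3.37 CPM across miR-21-KD tumours, and the groups overlapped. Cox6a2 met the count minimum in 2 VC and 4 miR-21-KD tumours, so it was tested through the group where it was higher and its fold change is not independent of the filter. It passed by DESeq2 (adjusted p = 0.0244) and limma-voom (adjusted p = 0.0368), but not with the replicate block (edgeR adjusted p = 0.0672), without the filter on low counts (edgeR adjusted p = 0.0715) or with any 1 tumour left out (edgeR adjusted p = 0.0534 to 0.134). Cox6a1 was at -0.10 ± 0.09, edgeR adjusted p = 0.388.

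Cox8b, the muscle and brown fat isoform of subunit 8, had too few counts for the test, with 1, 0, 2 and 3 counts in VC and 36, 7, 14 and 59 counts in miR-21-KD tumours. Every miR-21-KD tumour was above every VC tumour, and the ratio of the summed counts, scaled to library size, was 19.7 (95% Clopper-Pearson interval 8.76 to 54.7, covering counting error only). It was 29.9 without VC replicate 4 and 13.0 without miR-21-KD replicate 4. Without the filter on low counts, edgeR gave a log2 fold change of 4.14 with an adjusted p of 0.0102. Per 100 counts of Cox8a there were 0.0568, 0, 0.126 and 0.173 counts of Cox8b across VC and 2.48, 0.477, 0.924 and 3.36 across miR-21-KD tumours (exact permutation p = 0.0286, adjusted 0.0429). Cox8a, the widely made isoform, was at -0.11 ± 0.08, edgeR adjusted p = 0.304. The remaining pairs did not pass. Cox6b2, the testis isoform of subunit 6b, had 0.297, 0.297, 0.397 and 0.700 counts per 100 counts of Cox6b1 across VC and 0.954, 0.621, 0.918 and 1.68 across miR-21-KD tumours (exact permutation p = 0.0571, adjusted 0.0686). The log2 fold change of Cox6b2 was 1.21 ± 0.47, edgeR adjusted p = 0.0666, or 1.22 with the replicate block (edgeR adjusted p = 0.0129), while that of Cox6b1 was -0.07 ± 0.10, edgeR adjusted p = 0.568. Cox6b2 had 7, 6, 8 and 17 counts in VC and 20, 12, 18 and 38 counts in miR-21-KD tumours. The limit set by the filter holds for it as for Cox6a2. Cox4i2, the lung isoform of subunit 4, had 1.77, 1.17, 1.05 and 1.92 counts per 100 of Cox4i1 across VC and 1.18, 1.14, 1.88 and 1.25 across miR-21-KD tumours (exact permutation p = 0.886), and its values overlapped (0.15 ± 0.32, edgeR adjusted p = 0.731).

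**Figure D4:**
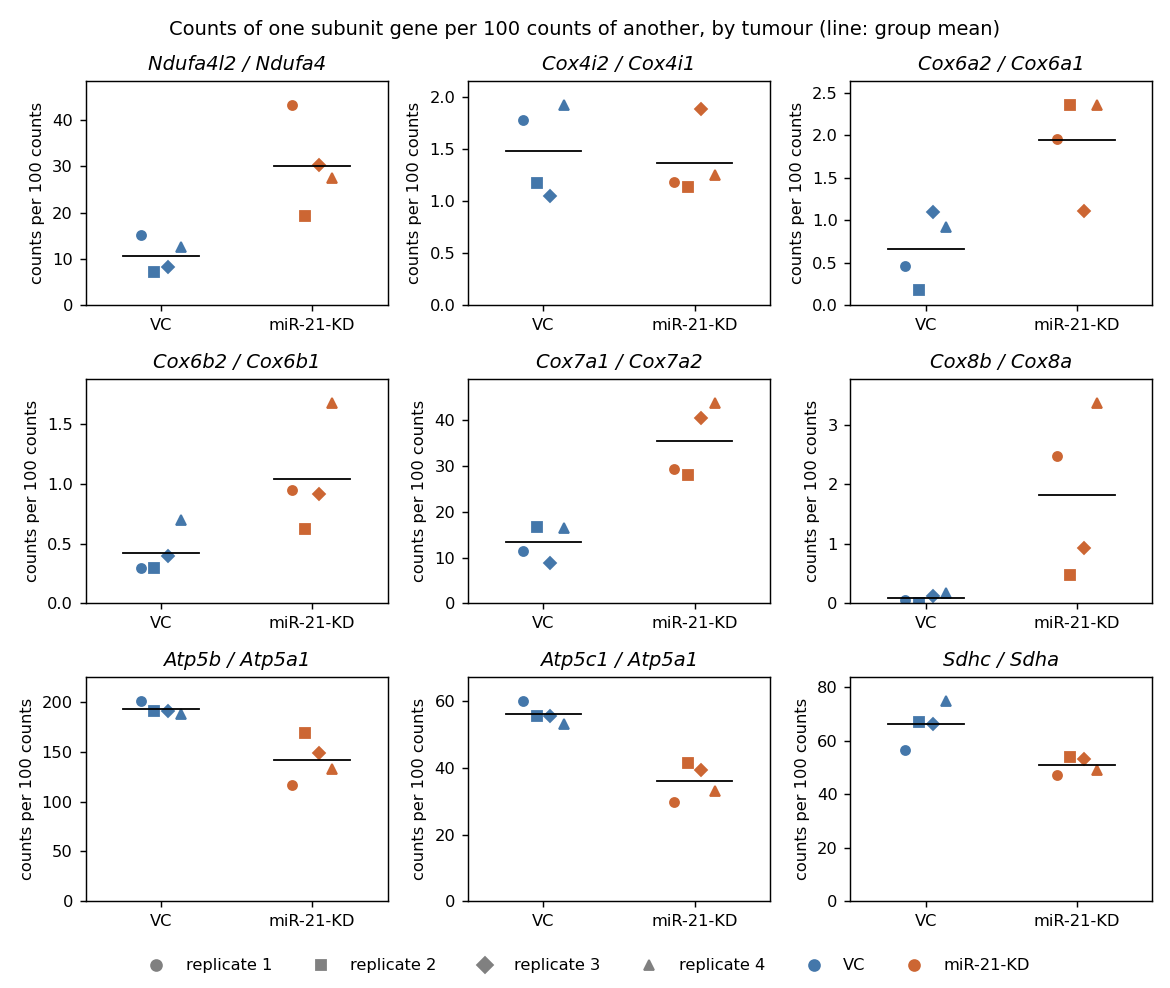
Counts of one subunit gene per 100 counts of another in each tumour, on linear axes that start at 0, with group means as lines and the replicate number as the shape. Ndufa4l2, Cox6a2, Cox7a1 and Cox8b are higher relative to their partners in all miR-21-KD tumours, Cox6b2 and Cox4i2 overlap, and Atp5b, Atp5c1 and Sdhc are lower relative to Atp5a1 or Sdha.

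Markers of skeletal muscle and of brown fat, which make these isoforms, did not all move one way. The 12 skeletal muscle markers (Ckm, Acta1, Mb and others) summed to 7.85 to 12.5 CPM across VC and 6.90 to 13.1 CPM across miR-21-KD tumours, which overlapped, and 3 of the 12 could be tested, with 1 higher and 1 lower. The called markers went opposite ways, Myh1, a fast myosin heavy chain, being lower (-2.47 ± 0.66, edgeR adjusted p = 0.0209) and Atp2a1, the calcium pump of fast muscle, higher (1.23 ± 0.35, edgeR adjusted p = 0.0259). Myh1 lost its call without VC replicate 3 or miR-21-KD replicate 1 or 3. Atp2a1 lost its call without VC replicate 2, 3 or 4 or miR-21-KD replicate 1 or 4. Myl1, not called with all 8 tumours, was higher without any 1 VC tumour or miR-21-KD replicate 2. Ckm, the muscle creatine kinase, had a mean of 0.0184 CPM across VC and 0.0802 CPM across miR-21-KD tumours, and Mb, myoglobin, of 0.190 and 0.681 CPM. Ucp1, which defines brown fat, had a mean of 0.0798 and 0.475 CPM. These 3 means were higher in the miR-21-KD group, and the values of the groups overlapped. The 5 brown fat markers summed to 43.8 to 57.4 CPM across VC and 9.13 to 17.1 CPM across miR-21-KD tumours, lower in all miR-21-KD tumours. Dio2, which activates thyroid hormone and is made in other tissues too, held most of this sum and was the only brown fat marker that could be tested (-2.27 ± 0.27, edgeR adjusted p = 0.00501), with a mean of 49.0 CPM across VC and 10.1 CPM across miR-21-KD tumours. The fall of the sum is thus that of Dio2 and does not describe the other markers, of which Ucp1 had the higher mean in the miR-21-KD group. All 8 adipocyte markers (Adipoq, Plin1 and others) rose, and their sum was 122 to 509 CPM across VC and 703 to 2004 CPM across miR-21-KD tumours. The part of adipocytes and other host cells in the isoform ratios was not tested.

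Complex V makes ATP with a catalytic F1 head joined to a membrane rotor. Of its 17 tested genes 4 were lower (23.5%, against 19.5% of all tested genes) and 0 higher (against 19.6%). The median log2 fold change was -0.19, and 15 of the 17 fold changes were below zero. Atp5c1, the gamma subunit that turns inside the head, measured 404, 405, 407 and 372 CPM across VC and 195, 285, 265 and 242 CPM across miR-21-KD tumours, far apart (log2 fold change -0.69 ± 0.12 (SE, n = 4 per group), edgeR adjusted p = 0.00708). Atp5b, the catalytic beta subunit and the OXPHOS gene with the highest mean CPM, measured 1352, 1397, 1396 and 1318 CPM across VC and 764, 1161, 1001 and 965 CPM across miR-21-KD tumours, again without overlap (-0.49 ± 0.14, edgeR adjusted p = 0.023). The call of Atp5b was lost without VC replicate 2 or 3 or miR-21-KD replicate 3 or 4, at an adjusted p of at most 0.0627. Atp5a1, the alpha subunit that alternates with beta in the head, measured 674, 731, 733 and 703 CPM across VC and 655, 690.1, 675 and 728 CPM across miR-21-KD tumours, which overlapped (-0.05 ± 0.09, edgeR adjusted p = 0.696).

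The alpha, beta and gamma subunits therefore changed unequally within the same tumours. Per 100 counts of Atp5a1 there were 201, 191, 190.4 and 188 counts of Atp5b across VC and 117, 168, 148 and 133 across miR-21-KD tumours, and 59.9, 55.5, 55.6 and 52.9 counts of Atp5c1 across VC and 29.7, 41.3, 39.3 and 33.2 across miR-21-KD tumours. Both ratios were lower in every miR-21-KD tumour, most in replicate 1 and least in replicate 2, and both pairs were chosen after their values were seen, so no test is given. Scaled to transcript length, Atp5b was the most abundant of these in each group, at 713 across VC and 508 across miR-21-KD tumours CPM per kilobase, against 287 across VC and 278 across miR-21-KD tumours for Atp5a1 and 341 across VC and 212 across miR-21-KD tumours for Atp5c1.

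Atp5h and Atp5pb encode parts of the peripheral stalk that holds the F1 head still. Atp5h measured 69.7, 74.9, 74.6 and 72.1 CPM across VC and 57.7, 57.7, 60.7 and 62.9 CPM across miR-21-KD tumours, without overlap (-0.29 ± 0.07, edgeR adjusted p = 0.0147). Atp5pb measured 213, 220.1, 217 and 225 and 160.0, 193, 179 and 189.9 CPM, also separate (-0.28 ± 0.08, edgeR adjusted p = 0.0304). It lost its call without any 1 tumour except miR-21-KD replicate 2. Both levels are uncertain, since 47.9% and 38.7% of their 50-base windows also occur in transcripts of other genes. Of the 3 genes for subunit c of the rotor ring, which encode the same mature protein, Atp5g3 measured 159, 203, 203 and 223 CPM across VC and 164, 174, 182 and 211 CPM across miR-21-KD tumours (-0.11 ± 0.13, edgeR adjusted p = 0.514). Atp5g2 measured 1.49 ± 0.291 CPM (SD, n = 4) across VC and 2.09 ± 0.462 CPM across miR-21-KD tumours (0.48 ± 0.25, edgeR adjusted p = 0.152), and Atp5g1 1.74 ± 0.249 CPM (SD, n = 4) across VC and 1.49 ± 0.549 CPM across miR-21-KD tumours. Neither passed the test. The remaining complex V genes, Atp5g1 among them, lay between -0.24 (Atp5l) and 0.03 (Atp5e).

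Several genes that respiring cells need had very few counts in both groups. Sdhd had 2 to 6 counts and Uqcr11 0 to 2 counts per tumour, and Ndufab1, Cox7c, Atp5l, Atp5g1 and Atp5g2 measured under 5 CPM on average. Of the 50-base windows of their transcripts 87.4% (Atp5g2), 84.8% (Atp5l) and 53.0% (Cox7c) also occur in other genes, against 12.3% for Ndufab1, 11.6% for Atp5g1, 10.9% for Uqcr11 and 0% for Sdhd. Atp5o shared 50.3% and measured 140.5 CPM on average across VC. How reads that fit several genes were counted is not given in the sources used here, so these low levels are uncertain and their cause was not tested. Ndufb4b, Ndufb4c, Cox7b2 and Cox8c were the other genes not tested, and the last pair had 0 counts in all 8 tumours.

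The promoters of OXPHOS genes are known to hold sites for the factors NRF1, YY1 and the ETS family, and were searched in the RefSeq windows (GRCm38.p6) from 250 bases before to 50 bases after the start of 77 of the 96 genes, on both strands. The letters CGCATGCG (NRF1) occurred in 14.3% of the 77 promoters, against 3.97% of those of tested genes, AAGATGGC (YY1) in 14.3% against 4.94%, CCGGAAGT (ETS) in 6.49% against 8.44%, and TATAAA (a core promoter box) in 10.4% against 9.14%. Of the 14 lower genes with a promoter window, Ndufa8 held the NRF1 letters, Ndufs4 and Atp5pb the YY1 letters and Atp5h the ETS letters. Of the 58 genes that were not called 9 held the NRF1 letters, 9 the YY1 letters and 3 the ETS letters. The letters found in a window do not show that a factor binds. In Cox8b the letters TATAAA begin at base 255 of the window, after the annotated start, so they are not shown to act as a core promoter box. A lower gene with the YY1 letters, one with the NRF1 letters and Cox8b are printed from 5′ to 3′ with the motif in capitals, to show where in the window the letters lie.
Ndufs4, - strand, chr13:114388045-114388344: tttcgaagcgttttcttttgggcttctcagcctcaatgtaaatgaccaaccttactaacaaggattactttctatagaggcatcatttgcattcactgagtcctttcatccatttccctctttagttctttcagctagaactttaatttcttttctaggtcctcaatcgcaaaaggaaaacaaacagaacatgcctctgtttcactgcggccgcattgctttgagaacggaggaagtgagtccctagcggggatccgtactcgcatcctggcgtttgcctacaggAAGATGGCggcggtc
Ndufa8, - strand, chr2:36049289-36049588: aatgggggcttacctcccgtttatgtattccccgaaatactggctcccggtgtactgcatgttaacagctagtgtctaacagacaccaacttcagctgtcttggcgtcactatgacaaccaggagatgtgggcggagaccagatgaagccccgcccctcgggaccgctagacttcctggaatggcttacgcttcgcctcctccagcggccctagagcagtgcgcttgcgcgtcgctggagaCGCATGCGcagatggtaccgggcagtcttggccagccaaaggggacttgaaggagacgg
Cox8b, - strand, chr7:140900397-140900696: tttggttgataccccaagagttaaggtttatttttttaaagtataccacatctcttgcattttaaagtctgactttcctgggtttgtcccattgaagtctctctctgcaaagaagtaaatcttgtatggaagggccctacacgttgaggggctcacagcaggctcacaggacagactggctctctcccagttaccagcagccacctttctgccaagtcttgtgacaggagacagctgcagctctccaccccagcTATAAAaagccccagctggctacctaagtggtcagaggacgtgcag
The factor NRF1 itself was lower in miR-21-KD tumours (Nrf1, -0.41 ± 0.11, edgeR adjusted p = 0.0189), a call that was lost without VC replicate 2 or 3 or miR-21-KD replicate 3 or 4 (edgeR adjusted p at most 0.0597).

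The other genes of the pathway were taken from lists written for this comparison. Of 17 TCA cycle genes 5 were lower and 0 higher, with a median of -0.19, and Idh3g (-0.71 ± 0.09, edgeR adjusted p = 0.00501) and Idh2 (-0.66 ± 0.10, edgeR adjusted p = 0.00571), isocitrate dehydrogenases of the mitochondrion, had the smallest adjusted p. The mitochondrial envelope list, carriers, import proteins and prohibitins, also had 5 of 17 lower and 0 higher (median -0.19), led by Phb (-0.69 ± 0.13, edgeR adjusted p = 0.00851), a prohibitin, and Tomm22 (-0.55 ± 0.12, edgeR adjusted p = 0.0119), an import receptor. Both shares were 29.4%, against 19.5% of all tested genes. Both counts fell in some fits with 1 tumour left out, the TCA count to 3 without VC replicate 2 or 3 or miR-21-KD replicate 3. The envelope count was 2 without VC replicate 3 and 3 without VC replicate 2 or miR-21-KD replicate 3 or 4. Idh3b, Idh3g, Idh2, Tomm22 and Phb passed with each tumour left out in turn. Calls among all genes also changed in number in such fits (see the last section), and no background share is given for each fit. Of 16 tested regulators of mitochondrial biogenesis 4 were lower (25%, against 19.5%) and 3 higher (18.8%, against 19.6%). Of the lower ones Tfam alone passed without VC replicate 2 or 3 or miR-21-KD replicate 3, and 2 passed without miR-21-KD replicate 1 or 4. Tfam, which packages and transcribes mitochondrial DNA, was lower (-0.44 ± 0.10, edgeR adjusted p = 0.0141), whereas Esrra, a nuclear receptor that activates OXPHOS genes (0.60 ± 0.13, edgeR adjusted p = 0.0115), and Polg, the mitochondrial DNA polymerase (0.47 ± 0.07, edgeR adjusted p = 0.00523), were higher.

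Calls among the assembly factors are read against the 19.5% lower and 19.6% higher of all tested genes. Of 6 factors of complex III 2 were lower (33.3%), Bcs1l (-0.65 ± 0.10, edgeR adjusted p = 0.00585), which inserts the Rieske protein, and Uqcc1 (-0.42 ± 0.13, edgeR adjusted p = 0.0317). The call of Uqcc1 was lost without any 1 of 6 tumours, all but VC replicate 1 and miR-21-KD replicate 2. Among 20 tested factors of complex IV 3 were lower (15%) and 0 higher, Cox15 (-0.43 ± 0.09, edgeR adjusted p = 0.0106), a haem A synthase, and Surf1 (-0.34 ± 0.08, edgeR adjusted p = 0.0157) having the smallest adjusted p. Of 9 further complex I factors 1 was lower (Acad9, -0.48 ± 0.09, edgeR adjusted p = 0.00815) and 1 higher (Dmac1, 0.65 ± 0.15, edgeR adjusted p = 0.0126), of 4 complex V factors 1 was lower (Atpaf2, -0.39 ± 0.10, edgeR adjusted p = 0.0165), and of 4 complex II factors 0 passed. Of 17 genes for electron carriers (coenzyme Q synthesis, cytochrome c and the electron transfer flavoproteins) 3 were lower, among them Coq4 (-0.69 ± 0.17, edgeR adjusted p = 0.0153) and Coq6 (-0.48 ± 0.16, edgeR adjusted p = 0.0422), and 3 were higher, among them Coq10b (0.66 ± 0.13, edgeR adjusted p = 0.00854) and Coq8b (0.56 ± 0.13, edgeR adjusted p = 0.0135). Coq6 lost its call without the same 6 tumours as Uqcc1, each of which left 1 lower gene, Coq4, in this list when removed. Of the 12 tested subunit genes of mitochondrial DNA 1 was lower, ND2 of complex I (-0.39 ± 0.11, edgeR adjusted p = 0.0207), and 0 were higher, with a median of -0.19. The call of ND2 was lost without VC replicate 3 or miR-21-KD replicate 4. The summed level of these genes was 20487 to 24091 CPM across VC and 17638 to 21941 CPM across miR-21-KD tumours, which overlapped.

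With the replicate block, calls changed in several of these lists. Cox17 (edgeR adjusted p = 0.0169), Pet100 (edgeR adjusted p = 0.0462), Sdhaf1 (edgeR adjusted p = 0.0381) and Etfb were then higher. Cox10, Cs, Suclg1, Timmdc1, Foxred1, Timm50, Gabpb1 and Twnk were lower with it, and Tfb2m lost its call (edgeR adjusted p = 0.0528). The lower TCA genes thus became 7, the lower envelope genes 6, the lower regulators 5, and the lower of the 9 further complex I factors 3. These genes are named for their change of call.

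For the complexes and lists above with 0 genes called in a direction by edgeR, 0 also passed in that direction at an unadjusted p under 0.05, by DESeq2 or by limma-voom, with 4 exceptions. In complex I 2 genes were higher at an unadjusted p, and 0 by DESeq2 or limma-voom. In complex III 2 genes were lower at an unadjusted p, 1 by DESeq2 and 1 by limma-voom. Of the complex IV assembly factors 2 were higher at an unadjusted p, 2 by DESeq2 and 0 by limma-voom, and of the complex II factors 1, 1 and 0 were higher.

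**Figure D5:**
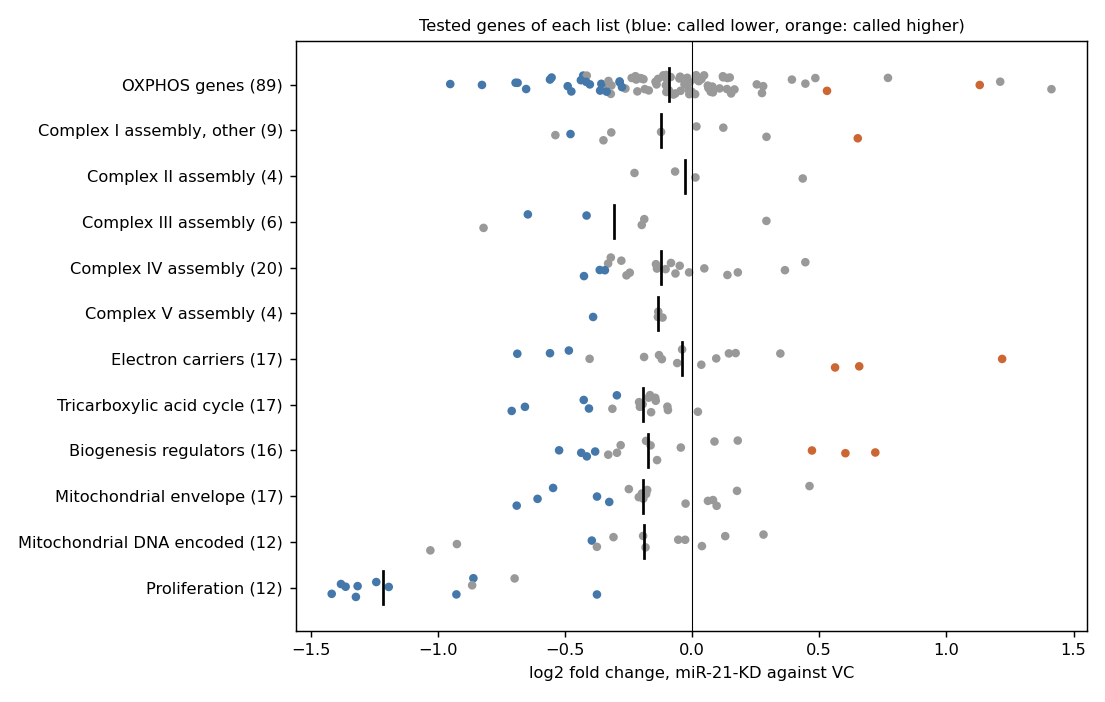
Log2 fold change of miR-21-KD against VC tumours for the tested genes of each list, with the number of genes in parentheses, the median as a black line and points spread vertically for legibility. The medians of the mitochondrial lists lie between -0.31 and -0.03, and that of the proliferation list lies at -1.22.

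Markers of other cell types moved with the groups. Of 13 leukocyte markers 9 were called higher and 0 lower, with summed levels of 1100.1 to 1942 CPM across VC and 1988 to 3569 CPM across miR-21-KD tumours. Of 8 fibroblast markers 7 were higher and 0 lower, with sums of 3136 to 8207 CPM across VC and 10662 to 23605 CPM across miR-21-KD tumours, and of 12 proliferation genes 10 were lower and 0 higher, among them Tyms (-0.93 ± 0.17, edgeR adjusted p = 0.00777) and Aurkb (-1.32 ± 0.25, edgeR adjusted p = 0.0079). The sum of the proliferation genes was 2231, 2333, 2399 and 1686 CPM across VC and 619, 1744, 847 and 723 CPM across miR-21-KD tumours, so miR-21-KD replicate 2 was nearest to VC and replicate 1 farthest, the order also seen for Atp5b, Atp5c1 and Ndufb9. Epithelial markers were mixed, with 6 of 8 higher and 1 lower and overlapping sums of 1303 to 2259 CPM across VC and 889 to 2000.4 CPM across miR-21-KD tumours. Of 8 pericyte markers 3 were higher and 1 lower, and of 8 endothelial markers 1, Tek, was higher. With 1 tumour left out Tek kept its call only without VC replicate 1 or miR-21-KD replicate 2. With the replicate block 5 pericyte markers were higher, and the endothelial marker Emcn was lower. No marker of these lists was at 0 in all tumours. Without VC replicate 3 the higher leukocyte markers were 5 and the higher fibroblast markers 3, and the lower proliferation genes were 6 without VC replicate 2 or 3 or miR-21-KD replicate 3 or 4. The part of a change in cell types or in proliferation in the OXPHOS results was not tested.

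Among genes outside the set, those most like the mean log2 CPM of the 89 tested genes over the 8 tumours were Mydgf (Pearson r = 0.960), Tmod4 (Pearson r = 0.958), Sem1 (Pearson r = 0.949), Mrps23 (Pearson r = 0.948) and Kptn (r = 0.941). All 8 points share the scaling of their libraries. The edgeR adjusted p of these 5 genes between the groups was 0.235 to 0.668. Within the set, the correlation of a gene with the mean of the others over the 8 tumours had a median of 0.579 and was lowest for Ndufa4l2 (-0.492), which rose where most others were level or fell. Of the 30 members with the lowest GC content (39.5% to 48.8%) 10 were lower (33.3%), of the middle 29 genes 7 were lower (24.1%) and 1 higher, and of the 30 with the highest (54.4% to 60.4%) 2 were lower (6.67%) and 1 higher. When all tested genes were split in the same way into 3 equal groups, 20.6%, 22.2% and 17.2% were lower, from low to high GC content. Across the 89 genes the correlation of GC content with the log2 fold change was 0.296 (Pearson) and 0.327 (Spearman), against 0.033 and 0.043 across 13380 tested genes with a transcript, as a description across genes, which are not independent replicates.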

How the data were processed

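Total RNA of 8 whole tumours (4 VC, 4 miR-21-KD) was sequenced. As deposited by the authors, the values are unnormalized read counts for each Entrez gene, and the submitters' processing notes name Subread, featureCounts, edgeR, limma and the build mm10, without versions or roles. Strandedness, the annotation and the treatment of reads that fit several genes are not given in the sources used here. The labels give day 14, and the paper's text an earlier day.

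Symbols came from the GRCm38.p6 gene table, which matched 25275 of 27179 identifiers. Counts were filtered with filterByExpr (at least 10 counts in enough tumours and 15 in all; 14382 genes and 99.9% of counts kept), scaled with TMM and compared in R 4.3.3 with the robust quasi-likelihood test of edgeR 4.0.16, without a block, p-values being Benjamini-Hochberg adjusted with a threshold of 0.05. CPM used TMM-scaled library sizes, and log2 CPM a prior count of 2. Gene features came from 1 GENCODE vM21 transcript per gene, and windows of 50 bases were compared with all other transcripts. Isoform ratios were compared by exact permutation tests in scipy. Alternatives were DESeq2 1.42.0, limma-voom (limma 3.58.1), other scalings and filters, the replicate block and each tumour left out.

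Tumours of the same replicate number deviated together from their group means (r = 0.272, 0.421, 0.175 and 0.376). For this reason the numbers were taken to pair the tumours, although no source names a pairing. The mean of other combinations was -0.105, a value largely set by the centring on group means, so it is no separate evidence of pairing. No source says more of the replicates than that they are separate tumours, and no pair of a group agreed within sampling noise (chi-square per degree of freedom 13.4 to 77.1). The genes, the lists and the naming rule were chosen with earlier results of these data known. The rule names, for each complex, the 3 genes of smallest adjusted p in each direction and the gene of highest mean CPM, all Sdh genes and the isoform pairs, 2 genes per direction of each pathway list, and the 5 genes most like the mean of the set. The values of 1 gene of the set are not reported here, although it is counted in the summaries.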

Additional observations from a re-analysis of the deposited data

Results flagged for a closer look

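Of 124 groups of 4 tumours examined, the values of the named genes and the complex means in each group, 7 held a tumour whose gap to its nearest neighbour, as a share of the range of the group, was over Dixon's 95% limit, which chance passes in about 1 in 20 groups. In the VC group, replicate 4 was low for Atp5c1 (372 CPM against 404 to 407 CPM in the other tumours) and high for Cox6b2 (1.39 CPM against 0.479 to 0.630 CPM). In the miR-21-KD group, replicate 2 was high for Ndufaf2 (13.1 CPM against 7.95 to 8.16 CPM) and for the proliferation gene Tyms (33.6 CPM against 20.2 to 21.8 CPM), and replicate 4 was high for Ndufv2 (102 CPM against 93.1 to 93.8 CPM). Replicate 1 was low for Idh3g (84.1 CPM against 97.5 to 99.3 CPM) and high for Sdhd (0.485 CPM against 0.235 to 0.243 CPM), the latter from 6 counts and less. Each of these tumours lay on the same side of the other group as the rest of its own group for Atp5c1, Ndufaf2, Ndufv2, Idh3g and Tyms.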

How the results depend on the processing

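The 19 lower OXPHOS genes became 17 to 24 and the 2 higher ones 2 to 6 under 7 other settings, namely DESeq2, limma-voom, the replicate block, scaling by upper quartile or by library size, and either a minimum of 10 counts in every tumour or no filter. The count of higher genes was 4 with DESeq2 and 6 with the replicate block. The median log2 fold change was -0.05 to -0.12. With 1 tumour left out there were 10 to 20 lower genes, 1 to 5 higher genes, a median of -0.06 to -0.14 and 2936 to 6840 calls among all genes, against 5626. Exchanging labels only within pairs for the isoform ratios was chosen after seeing the data and ended the 4 calls made without pairing, since it cannot give a p under 0.125. The cause of these changes was not tested beyond the smaller number of tumours. Of the 21 called genes 18 passed under all 7 of those settings, Ndufa4, Ndufaf6 and Atp5pb being the exceptions, and 11 passed with each tumour left out in turn: Ndufa10, Ndufb5, Ndufs4, Ndufv2, Ndufaf2, Ndufaf7, Cox7a2, Cox7b, Ndufa4l2, Atp5c1 and Atp5h. Beside the calls gained with the replicate block and given above, and Ndufa5, Ndufb11, Uqcrc1, Atp5mpl and Atp5o, which became lower with it, the block changed no call of an OXPHOS gene. Signs reversed in genes that were not called. The log2 fold change of Sdha was 0.0253 with upper-quartile scaling and 0.0324 with the minimum of 10 counts, and that of Cox4i2 ranged from -0.0632 to 0.38 with 1 tumour left out. For genes with few counts, 10 tested ones having a mean under 5 CPM in VC tumours, small differences may not be detectable at this depth.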
